A study of Rattus norvegicus with 24 samples.

Results

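The comparison described here sets the heart septum of rats whose brown adipose tissue (BAT) had lost its sympathetic nerves against that of rats with intact BAT, all of them infused with leptin. Its members are the 12 of 24 mRNA sequencing libraries whose names carry the denervation with leptin label (6 libraries) or the intact BAT with leptin label (6 libraries). All the animals were Sprague-Dawley rats with cardiac ischemia-reperfusion injury and a cannula into the cerebral ventricles, and the septum was taken on day 28. Every library has its own rat number. The other 12 libraries came from 6 rats with intact BAT and vehicle and 6 rats with BAT ablation and leptin. They entered the gene filter, the scaling and the model, where they helped set both the spread and the adjustment for rat number. Their values are quoted only beside single genes. No denervated group received vehicle, so an effect of denervation without leptin cannot be told apart from its effect under leptin. The sources used here give no age or sex and do not say how BAT was denervated.

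BAT is a heat-producing fat whose activity is set largely by the sympathetic nerves that reach it. Noradrenaline released from those nerves acts on beta-adrenergic receptors of brown adipocytes and drives lipolysis and thermogenesis. Leptin, a hormone made by adipocytes, acts on receptors in the hypothalamus, and one of its known actions is to raise sympathetic outflow to BAT. Loss of those nerves therefore leaves the brain exposed to leptin while removing the direct nerve route from brain to BAT. The heart is a different organ from the one that was denervated, so the values below describe a distant tissue.

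The 12 libraries held 71587993 to 122910706 assigned reads, and 17982 to 19405 genes had at least 1 read in a library. Genes carry Ensembl rat identifiers, and the table of names at hand paired 0 of the 30562 identifiers with a symbol. Genes are therefore described by position on the mRatBN7.2 assembly, and neither the septum's markers nor any pathway could be checked. In bulk tissue, fewer cells of a type and less RNA per cell cannot be told apart.

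Rat number was the largest source of difference among the 12 libraries. On the first principal component (PC1, 49.8% of the variance of log2 CPM, where CPM is the read count scaled to a common library size, with TMM factors), the 3 rats with the highest numbers stood at 105 to 128 and the other 9 below 0. These high-numbered rats gave denervation replicates 5 and 6 and intact replicate 6. The treatment groups lay apart on the second component, with 10.7% of the variance. There the denervated libraries stood at -41.0 to -6.09 and 5 of the 6 intact libraries at 11.7 to 53.1, while intact replicate 5 stood at -20.5, inside the denervated range. Among the low-numbered rats the median gene had an SD of 0.38 in log2 CPM in the 5 intact and 0.31 in the 4 denervated libraries.

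**Figure D1:**
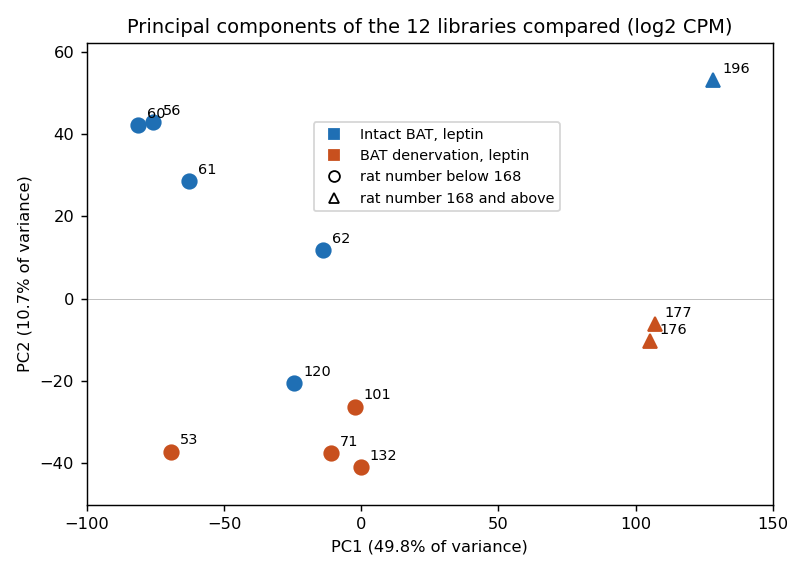
First (x axis) against second (y axis) principal component of log2 CPM in the 12 libraries, labelled by rat number, with blue for intact BAT and orange for BAT denervation. The 3 high-numbered rats (triangles) lie at 105 to 128 on the x axis, and every denervated library lies below 0 on the y axis together with 1 intact library.

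With a term for the rat-number set in the model, 422 genes were higher and 732 lower in the septum of denervated rats at an adjusted p below 0.05 (edgeR's quasi-likelihood test). They were 6.65% of the 17347 genes tested, 2.43% higher and 4.22% lower. Most differences were moderate. The median log2 difference was 0.64 in the higher and -0.59 in the lower genes, with a median standard error (SE) of 0.16. A log2 difference of 1 or more was reached by 83 higher and 69 lower genes. Without the rat-number term 0 genes passed in edgeR, although 2836 had an unadjusted p below 0.05. There DESeq2 called 511 genes and limma-voom 3955. Every limma-voom fit given here used sample weights, a weight per library, which the edgeR and DESeq2 fits did not. Fitted on the 12 libraries alone, with the term, 178 genes passed in edgeR. The term was chosen with earlier results of these libraries known.

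The called genes were then followed within each rat-number set. All 422 higher and all 732 lower genes kept their sign among the low-numbered rats (4 denervated, 5 intact). Among the high-numbered rats (2 denervated, 1 intact), 413 of 422 and 657 of 732 did. The median differences in log2 CPM were 0.67 and 0.62 in the low and high sets for the higher genes, and -0.61 and -0.38 for the lower genes. These signs follow in part from the choice of genes, since the same libraries gave the calls. The low-numbered rats fitted alone gave 1 call, although 4176 of 17890 genes had an unadjusted p below 0.05 by edgeR. In the main fit 4604 of 17347 did.

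The split between higher and lower genes depended on scaling. By library totals without TMM the median of all genes shifted from 0.01 to 0.16, and 832 genes were higher and 112 lower. Of the main calls, 534 were also called on that scale.

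The 6 denervated libraries stood wholly above or wholly below the 6 intact libraries for 165 genes, 0.951% of those tested. Of these, 90 were above (0.519%) and 75 below (0.432%), and 105 were among the called genes.

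Genes were named here only if they averaged 1 CPM or more and had the same sign in both rat-number sets. Among such genes, the higher one with the lowest p value was ENSRNOG00000050258 (chromosome 9, 13394169 to 13489371, minus strand, 2066 bp of exons). Its level was 71.6, 91.1 and 131 CPM (lowest, median, highest of 6) after denervation and 44.2, 54.9 and 68.9 CPM with intact BAT. Every denervated library stood above every intact one. The log2 difference was 0.69 with an SE of 0.12 (adjusted p = 0.0145 by edgeR). Another annotated gene overlaps it, and the counts, made without strand, cannot separate the overlapping parts.

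The second was ENSRNOG00000008676 (chromosome 4, 168212861 to 168232904, plus strand). It stood at 163, 240 and 268 CPM after denervation and at 44.1, 81.4 and 149 CPM with intact BAT, again without overlap. The highest intact library was replicate 5, the one that lay with the denervated libraries on PC2. The log2 difference was 1.40 with an SE of 0.25 (adjusted p = 0.0145 by edgeR).

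The lower gene with the smallest p was ENSRNOG00000022009 (chromosome 18, 27239001 to 27241094, minus strand, 909 bp of exons). Its level was 0.545, 1.09 and 2.21 CPM after denervation against 2.49, 4.97 and 8.28 CPM with intact BAT, which gave a log2 difference of -1.88 with an SE of 0.27 (adjusted p = 0.0057 by edgeR). The groups met closely at their edges, since the lowest intact library came from the high-numbered rat and the highest denervated one from a low-numbered rat. Within the sets, the mean difference in log2 CPM was -1.80 in the low-numbered and -2.11 in the high-numbered rats. The shared sign was required by the rule that named the gene, so it is no check. Of all 1154 genes, this was the 1 that passed in each of the 12 fits that left out a library.

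The other lower gene was ENSRNOG00000004125 (chromosome 13, 42120798 to 42131817, minus strand). It stood at 1.25, 2.83 and 4.33 CPM after denervation and at 4.81, 8.95 and 12.4 CPM with intact BAT, and the groups did not overlap. The log2 difference was -1.67 with an SE of 0.28 (adjusted p = 0.0145 by edgeR).

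None of these 4 genes passed in edgeR without the rat-number term (edgeR adjusted p = 0.109 to 0.117), in the low-numbered rats alone (edgeR adjusted p = 0.0869) or without the 4 intact rats numbered 56 to 62 (edgeR adjusted p = 0.0742 to 0.404). The last of these fits kept only replicates 5 and 6 of the intact group. Without the term all 4 passed in DESeq2 (adjusted p up to 0.00889) and in limma-voom (adjusted p up to 0.00238). With a length gradient in the model ENSRNOG00000022009 passed (edgeR adjusted p = 0.0268) and the other 3 did not (edgeR adjusted p = 0.0517), and with a linear rat number ENSRNOG00000050258 did not (edgeR adjusted p = 0.0509). ENSRNOG00000022009 passed in all 12 fits that left out a library, and the other 3 missed only without denervation replicate 4 (edgeR adjusted p = 0.0507).

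The levels of these 4 genes were also read in the other groups. Vehicle-infused rats with intact BAT stood near the denervated rats, at 95.5 ± 21.1 CPM for ENSRNOG00000050258, 221 ± 43.6 CPM for ENSRNOG00000008676, 1.49 ± 0.748 CPM for ENSRNOG00000022009 and 2.80 ± 1.02 CPM for ENSRNOG00000004125 (mean ± SD, n = 6). The denervated means, in the same order, were 97.0 ± 23.2, 230 ± 39.5, 1.26 ± 0.726 and 2.75 ± 1.34 CPM. Rats with BAT ablation and leptin stood at 85.6 ± 20.9, 292 ± 97.9, 1.70 ± 0.797 and 3.98 ± 1.45 CPM. In all 4 genes the intact BAT with leptin group therefore had the mean farthest from the others, at 55.3 ± 10.7, 86.5 ± 34.9, 5.09 ± 2.22 and 8.69 ± 3.06 CPM. The genes were chosen for their difference from that group, and the comparisons share its libraries, so this order is a description and was not tested. The means are not adjusted for rat number, and the groups did not all hold the same number of high-numbered rats.

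**Figure D2:**
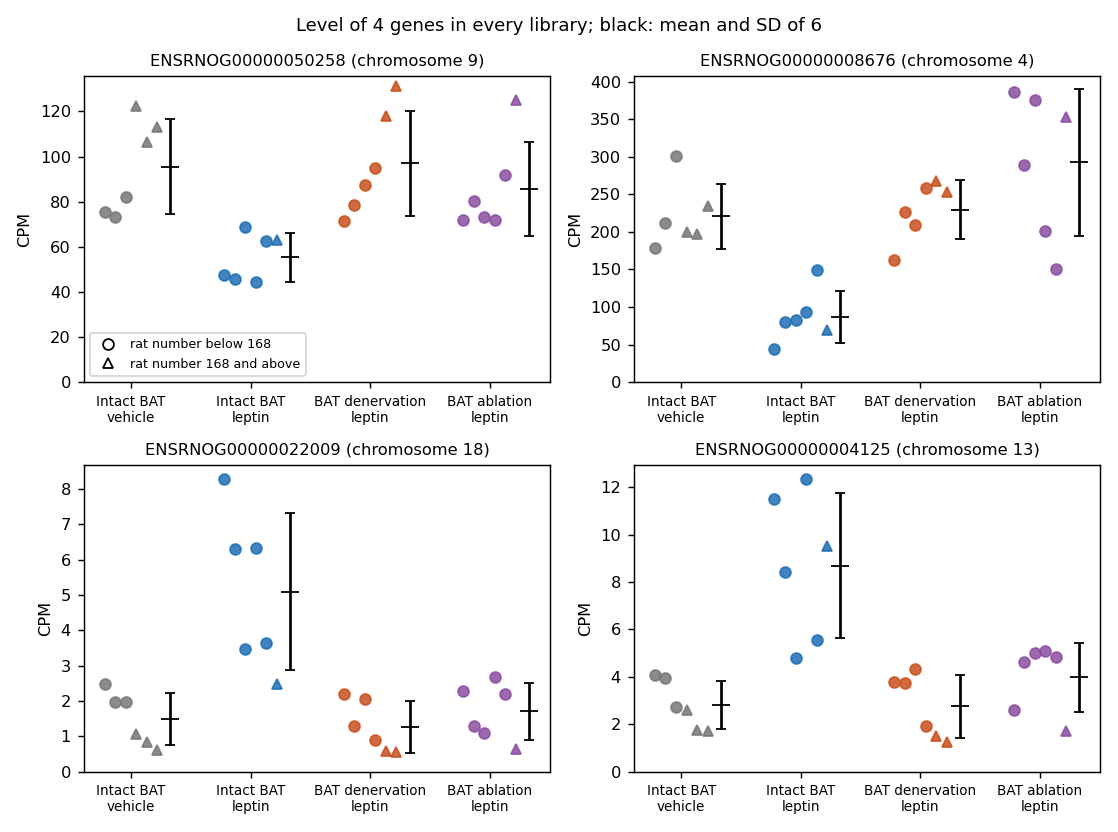
CPM (y axes, linear from 0) of the 4 named genes in each library of the 4 groups, with triangles for high-numbered rats and black bars for the mean and SD of 6. In each panel the 6 intact BAT with leptin libraries (blue) lie wholly to one side of the 6 denervated libraries (orange).

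Among called genes that averaged at least 1 CPM over the 12 libraries, the largest fitted difference in each direction was in a gene of low level. Both genes were chosen after their values were seen. A chromosome 13 gene (83570811 to 83576679, plus strand) stood at 2.703, 8.79 and 29.8 CPM after denervation and 0.0986, 2.12 and 3.65 CPM with intact BAT, which gave a log2 difference of 2.91 with an SE of 0.65 (adjusted p = 0.0225 by edgeR). A chromosome 3 gene (57544998 to 57548700, minus strand) stood at 0.0744, 0.158 and 0.240 CPM after denervation and 0.191, 1.47 and 7.21 CPM with intact BAT, which gave a log2 difference of -3.79 with an SE of 0.93 (adjusted p = 0.0288 by edgeR). The groups overlapped in both. They passed in 8 and 6 of the 12 fits that left out a library. The chromosome 3 gene met the 1 CPM average only through the intact libraries, with a mean of 2.41 CPM against 0.157 CPM after denervation. Its low level after denervation is therefore not separate from the way it was chosen.

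Among genes of many exons, calls were mostly lower after denervation. Exon blocks are a gene's exons after overlapping ones are merged. Of 2451 tested genes with over 20 blocks, 200 were lower (8.16%) and 36 higher (1.47%), with a median log2 difference of -0.13. Of 4483 genes with 2 to 5 blocks, 1.96% were lower and 2.25% higher, with a median of 0.11. Between these classes, the 4656 genes of 6 to 10 blocks had 140 lower and 155 higher, and the 4619 of 11 to 20 blocks had 286 lower and 115 higher. The class with over 20 blocks had a median of -0.16 in the low-numbered rats and 0.03 in the high-numbered rats. Scaled by library totals without TMM it had 62 higher and 22 lower genes and a median of 0.02. Its median stood 0.24 below that of the class of 2 to 5 blocks, a difference that scaling cannot move. That difference was -0.11 with a length gradient per library in the model, where 0 genes of over 20 blocks were called, and -0.10 without the 4 intact rats numbered 56 to 62, where 1 was. The latter fit kept only intact replicates 5 and 6. Calls in the class numbered from 0 without denervation replicate 4 to 332 lower and 71 higher without intact replicate 5.

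The pattern was also present among genes of like length or level. Among the longest 20% of genes by exonic length, 124 of 1546 with over 20 blocks were lower and 19 higher, against 14 lower and 12 higher of 487 with 2 to 5 blocks. Among the shortest 40% only 19 genes had over 20 blocks, so the class of 11 to 20 blocks was read there. Of its 1014 genes 65 were lower and 20 higher, against 51 and 54 of 2674 with 2 to 5. At 10 to 100 CPM, 140 of 1323 genes with over 20 blocks were lower and 15 higher. The class of 2 to 5 blocks at that level had 36 lower and 50 higher of 1248. In the low-numbered rats the medians at that level were -0.19 with over 20 blocks and 0.19 with 2 to 5. In the high-numbered rats they lay close together, at -0.019 and -0.001. Among the longest 20% they were -0.17 and 0.11 in the low-numbered and 0.05 and 0.10 in the high-numbered rats. Genes are not independent replicates, so no test was made over them.

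Per library, the exon-block gradient is the median centred log2 CPM of genes with over 20 blocks minus that of genes with 2 to 5. It ranged from -0.228 to 0.107 in denervated libraries (median -0.0738) and from -0.0662 to 0.426 in intact ones (median 0.172), so the groups overlapped. The means differed by -0.205 (exact two-sided permutation p = 0.0519, adjusted p = 0.0779 over 3 library measures), which did not pass. In low-numbered rats alone it was -0.286 (exact permutation p = 0.0317), and in high-numbered rats -0.0256. The measure was chosen after the exon classes had been seen. The gradient with length itself, longest minus shortest 20% of genes, differed by -0.0405 (exact permutation p = 0.773), and by -0.18 in low-numbered rats alone (exact permutation p = 0.0794).

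**Figure D3:**
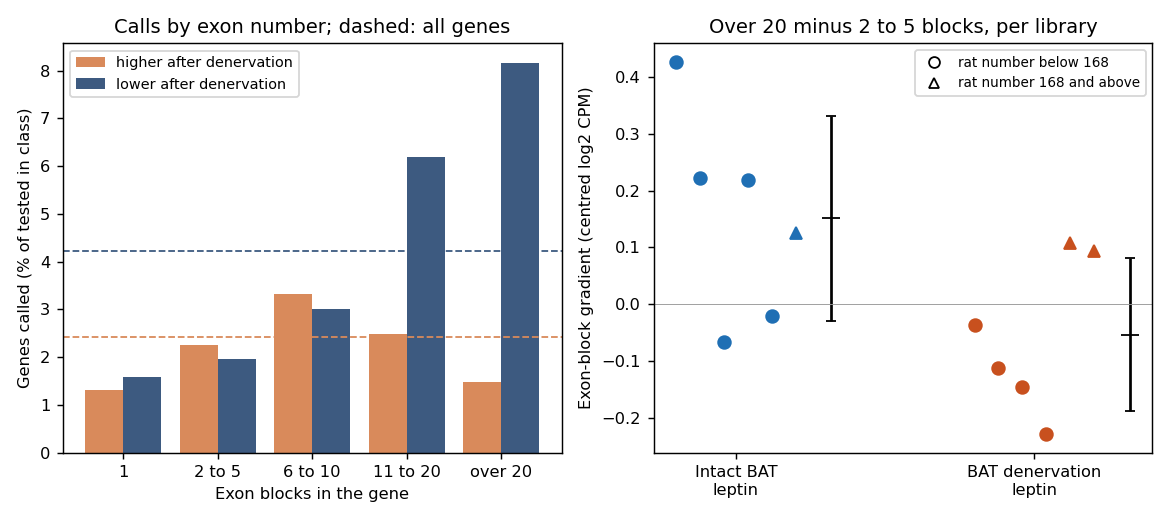
Left, share of tested genes called higher or lower after denervation (y axis, %) by number of exon blocks (x axis), with dashed lines at 2.43% and 4.22% for all genes. Right, the exon-block gradient of each library (y axis, centred log2 CPM) with the mean and SD of each group of 6; the groups overlap, and the 4 low-numbered denervated rats lie at -0.228 to -0.0362.

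By level, of 7396 genes at 10 to 100 CPM, 519 were lower and 234 higher, and of 1292 genes at 100 CPM and over, 102 were lower and 65 higher. Of 3996 genes under 1 CPM, 24 were lower and 28 higher. By chromosome, the shares were read against 2.43% higher and 4.22% lower over all genes. Chromosome X had 18 higher (3.00%) and 16 lower (2.66%) genes of 601 and a median log2 difference of 0.11, while chromosome 3 had 34 (2.74%) in each direction of 1243. These were not the only such chromosomes. Chromosome 13 had 19 higher (3.41%) and 16 lower (2.87%) of 558, with a median of 0.07. Chromosome 18 had 8 higher (1.80%) and 10 lower (2.25%) of 444. No test was made between chromosomes.

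Reads from the mitochondrial chromosome made up a smaller share of the library after denervation. The share was 23.7%, 26.5% and 29.8% (lowest, median, highest of 6) after denervation and 24.4%, 33.6% and 41.1% with intact BAT. Only intact replicate 3, at 24.4%, lay in the denervated range. The means differed by -6.77 percentage points (exact two-sided permutation p = 0.013, adjusted p = 0.039 over 3 library measures). The difference was -6.57 points within the low-numbered rats (exact permutation p = 0.0635), where it did not pass, and -8.15 points within the high-numbered rats.

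The single genes of that chromosome were then compared. Of its 37 annotated genes 22 were tested, and all 22 had log2 differences below 0. Among the 15 of at least 200 bp the differences ran from -0.90 to -0.40 (median -0.50), and 2 passed, which is 9.09% of the 22 against 6.65% of all genes. None of the 15 passed without intact replicate 1 or 2, or without denervation replicate 2, 3 or 4. In edgeR none passed in the low-numbered rats alone, without the rat-number term or with a linear rat number. The same held with a length gradient per library in the model and without the 4 intact rats numbered 56 to 62. That left only replicates 5 and 6 in the intact group. In DESeq2 with the term 7 passed. The gene at 1094 to 2664 (plus strand, 1571 bp) stood at 1445, 1842 and 2045 CPM after denervation and 2860, 3206 and 4345 CPM with intact BAT, without overlap, a log2 difference of -0.90 with an SE of 0.20 (adjusted p = 0.0225 by edgeR). Its neighbour at 68 to 1025 (plus strand, 958 bp) stood at 1810, 2586 and 3087 CPM against 3187, 4258 and 6257 CPM, also without overlap, a log2 difference of -0.74 with an SE of 0.20 (adjusted p = 0.0337 by edgeR). These genes held 0.867% and 1.17% of the mitochondrial reads. They are given by position only, and no claim is made that they code for protein.

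The most abundant mitochondrial gene (5323 to 6867, plus strand), with 32.8% of those reads, did not pass. It stood at 51358, 84481 and 104524 CPM after denervation and 77196, 104639 and 148650 CPM with intact BAT, and the groups overlapped widely (log2 difference -0.47 ± 0.22, SE, edgeR adjusted p = 0.172). The 13 genes of at least 200 bp that did not pass had adjusted p values up to 0.214. The median of the 15 was -0.38 in the low and -0.75 in the high set, with all 15 below 0 in both, and -0.32 when scaled by library totals. None of the 7 shorter genes, of 60 to 72 bp, was called.

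**Figure D4:**
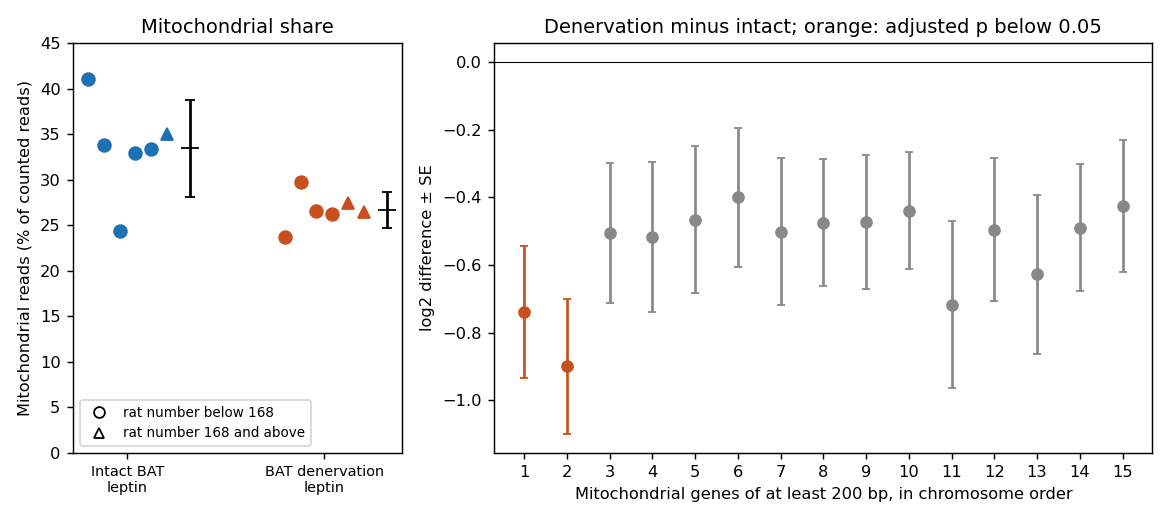
Left, mitochondrial reads as a percentage of counted reads in each library (y axis from 0), with the mean and SD of each group of 6. Right, log2 difference ± SE (denervation minus intact) of the 15 mitochondrial genes of at least 200 bp in chromosome order; all 15 lie below 0 and the first 2 (orange) passed the test.

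Called genes lay next to each other in 8 stretches of at least 3 consecutive tested genes with the same direction, 2 higher and 6 lower, with 26 genes in all. On chromosome 2 (60865483 to 61020436) the single-block gene at the start stood at 15.9, 35.2 and 51.6 CPM after denervation against 5.35, 8.62 and 20.1 CPM with intact BAT (log2 difference 1.42 ± 0.40, SE, edgeR adjusted p = 0.0375). Its neighbour at 60870594 to 60932955 had the widest gap of the 3, at 3.08, 7.55 and 20.8 CPM against 0.602, 1.53 and 4.24 CPM (1.85 ± 0.49). The third, at 61005666 to 61020436, differed by 0.58 ± 0.16 on the log2 scale, and the groups overlapped in all 3.

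On chromosome 11 (67877967 to 68001495) the 4 lower genes differed widely in level. The gene at 67907516 to 67964314 stood at 86.2, 125 and 143 CPM after denervation and 145, 185.8 and 258 CPM with intact BAT, with no overlap (log2 difference -0.67 ± 0.17, SE, edgeR adjusted p = 0.0292). The gene at 67987800 to 68001495 lay near the limit of detection, between 0 and 0.124 CPM after denervation and 0.068 and 1.03 CPM with intact BAT. All 4 had the same sign in both rat-number sets.

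The higher stretch on chromosome 1 (207492365 to 207530215) held 3 genes with log2 differences of 0.45 to 0.81, of which the middle one (207507077 to 207518758) rose from 36.1, 41.9 and 46.9 CPM to 48.3, 55.6 and 87.8 CPM without overlap. It shares its edge with the first gene on the opposite strand. Lower stretches lay on chromosome 10 (38008311 to 38179720, 3 genes, median log2 difference -0.75), chromosome 8 (108420222 to 108593156, 3 genes, -0.59), chromosome 17 (43148079 to 43253264, 3 genes, -0.68) and chromosome 20 (30560544 to 30815306, 3 genes, -0.50, and 44947297 to 45018340, 4 genes, -0.62). In the chromosome 10 stretch 1 of 3 genes kept its sign in the high-numbered rats, and in the other 7 stretches every gene did. Between 0 and 22 such stretches were found when single libraries were left out.

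The denervation difference itself was compared between the rat-number sets by an interaction term. It passed for 193 genes (1.11% of those tested, edgeR's quasi-likelihood test), 58 with a higher and the others with a lower difference in the high-numbered rats. Of the 193, 7 were among the 1154 called genes, which make up 6.65% of all genes tested. A single intact library represents the high-numbered set in this test, and the count was 44 without denervation replicate 5 and 31 without denervation replicate 6.

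How many genes passed depended on single libraries. The count was 1 without denervation replicate 4, 49 to 105 without intact replicate 1, 2 or 4 or denervation replicate 2 or 3, and 426 to 453 without denervation replicate 5 or 6. It was 1697 to 2329 without intact replicate 3, 5 or 6 or denervation replicate 1. Without denervation replicate 4, 3576 genes still had an unadjusted p below 0.05 by edgeR, against 4604 with all libraries. The 1154 genes kept their direction there, though most of the same libraries had given the calls. Of the 1154 genes, 364 passed in at least 6 of these 12 fits and 59 in at least 10. Without the 4 intact rats numbered 56 to 62, 5 genes passed, and with a length gradient per library in the model 2 did. The first of these fits kept only intact replicates 5 and 6, 1 in each rat-number set. The length gradient came from the same counts. It stood at 0.293 to 0.384 in the high-numbered and -0.313 to 0.177 in the low-numbered rats compared here. Why either count was lower was not tested.

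**Figure D5:**
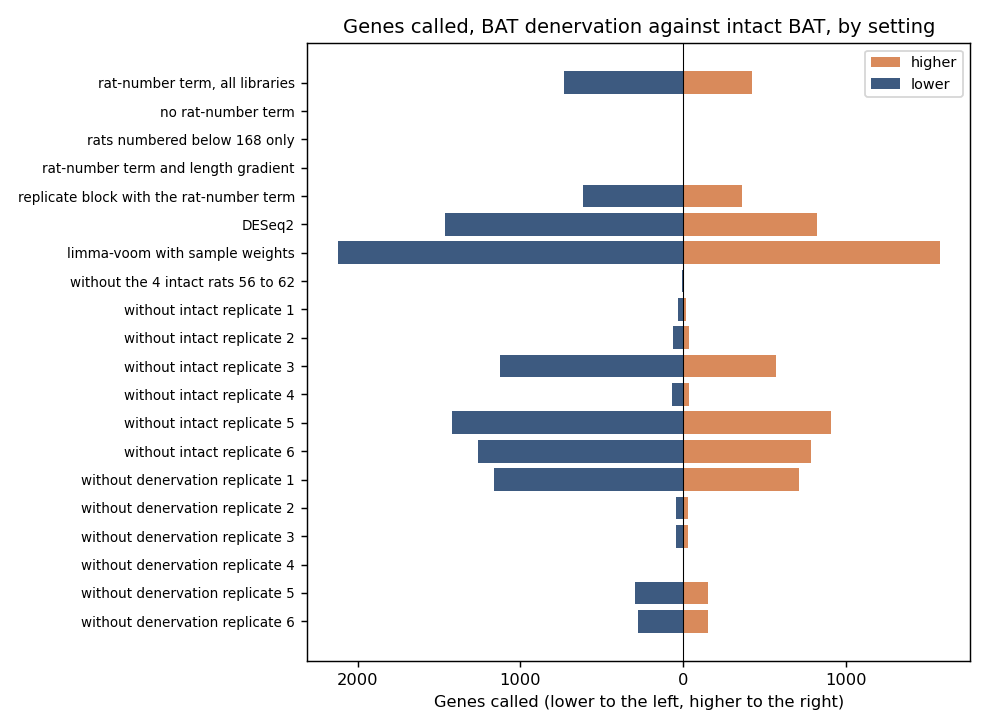
Number of genes called lower (blue, to the left) and higher (orange, to the right) after denervation under each setting listed on the y axis. Among the settings drawn, the count runs from 0 without the rat-number term to 3704 with limma-voom and sample weights. It runs from 1 to 2329 when 1 library is left out.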

How the data were processed

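Per the labels, RNA of the heart septum was read by paired-end mRNA sequencing. The authors deposited whole-number read counts and an exonic length for 30562 genes. STAR 2.7.10a, featureCounts 2.0.2, DESeq2 and R 4.4.1 are named in the submitters' processing notes; per the file headers the counter was featureCounts 2.0.6, with the Ensembl 113 annotation of mRatBN7.2, paired mode and no strand option. Counts of 2 (19013 values) outnumber counts of 1 (5161), as when both mates are counted. Groups came from the labels. Another 5 count columns, which no listed sample matches, were left out.

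Genes were kept by filterByExpr, TMM-scaled, and tested by the robust quasi-likelihood fit of edgeR 4.0.16 (R 4.3.3) with all 24 libraries, a term for rat number (the 7 highest-numbered rats against the other 17) and Benjamini-Hochberg adjustment at 0.05. Library measures were compared by exact permutation tests. Members, lists and tests were chosen with earlier results of these data known. Genes were named by smallest p, a mean of at least 1 CPM and the same sign in both rat-number sets, 2 higher and 2 lower. The 61 gene lists, written by symbol, could not be run. Alternatives used DESeq2 1.42.0, limma 3.58.1 (limma-voom with sample weights), sva 3.50.0, other scalings and filters, and left-out libraries. Counts were simulated for denervation against intact BAT (17347 genes). Of 100 genes set to a fold of 2, 70 were called, and of 100 set to 1.5, 34 were. Of all 108 calls 4 were false, so a gene that missed the threshold can still have changed. The changed genes averaged at least 1 CPM, and genes were drawn independently of each other. Recovery at lower levels, and false calls where many genes shift together in a library, were therefore not tested.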

Additional observations from a re-analysis of the deposited data

Results flagged for a closer look

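Within-group gaps were checked in groups of 6 for the genes described above, and chance alone marks about 1 in 20 groups. For 3 of these genes, a library outside the comparison stood apart from the rest of their group. ENSRNOG00000050258 stood at 125 CPM in BAT ablation replicate 6, the 1 high-numbered rat of that group, against a group median of 76.6 CPM. The chromosome 13 gene at 83570811 to 83576679 stood at 66.9 CPM in BAT ablation replicate 1, against a group median of 5.72 CPM. The chromosome 3 gene at 57544998 to 57548700 stood at 3.10 CPM in vehicle replicate 2, against a group median of 0.223 CPM.

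The denervation difference differed between the rat-number sets for 193 genes by edgeR's interaction test. The part that single libraries play in it is given by the left-out counts, 31 to 267. Without intact replicate 6 the interaction could not be fitted.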

How the results depend on the processing

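The count of 1154 genes was 0 without the rat-number term (DESeq2 511, limma-voom 3955), 13 with a linear rat number, 1 in the low-numbered rats, 1799 with a surrogate variable, 2 with the length gradient, 178 on the 12 libraries alone, 2286 with DESeq2, 3704 with limma-voom, 624 without a filter, 5 without intact rats 56 to 62, and 1 to 2329 with single libraries left out. The other 6 alternatives stayed within 1.5 times. The fit without intact rats 56 to 62 kept only intact replicates 5 and 6. Same-number replicates of the 2 groups correlated at -0.110 to 0.713, with 2 of 6 matching best with their own number. The rat-number set was not removed from these correlations, so they cannot decide whether replicate numbers pair the rats. The fit with a replicate block called 977.

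The stretches of neighbouring genes numbered 0 to 22 with single libraries left out and 0 to 71 in the other settings. Interaction counts were 31 to 267 with single libraries left out. The mitochondrial share difference was -6.57 points in the low-numbered rats and -8.58 to -5.25 with libraries left out. The exon-block gradient difference was -0.286 in the low-numbered rats and -0.248 to -0.150 with libraries left out. The length gradient difference reversed to 0.0167 without intact replicate 6, 0.0156 without denervation replicate 1 and 0.0117 without denervation replicate 4 (range from -0.124). The 4 named genes had adjusted p values by edgeR of 0.109 to 0.117 without the rat-number term (all 4 passed there in DESeq2 and limma-voom), 0.0869 in the low-numbered rats, 0.0742 to 0.404 without intact rats 56 to 62, 0.0268 to 0.0517 with the length gradient (3 lost), 0.0419 to 0.0509 with a linear rat number (1 lost) and at most 0.0507 with single libraries left out. The causes were not tested. The gene lists and their alternatives were not run. Counts limit the precision of genes under 1 CPM.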
